A study of Mus musculus with 16 samples.

Results

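The lysosome was examined through 38 genes, measured as poly(A) RNA in cultured CD8+ T cells with and without Pdha1. The 38 were taken by name as a set of lysosomal enzymes, membrane proteins and regulators, and are 38 of the 55401 genes in the deposited tables. The rule used names and no values, though earlier results of these data were known when the set was chosen. They comprise 3 transcription factors, 4 membrane proteins (a channel among them), 10 cysteine proteases, 4 aspartic and serine peptidases, 7 glycosidases, 2 sulfatases, 3 other lumen proteins and 5 subunits of the proton pump. All 38 passed the filter on low counts.

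By the study's methods for differentiation in culture the cells were OT-I cells, CD8+ T cells with 1 transgenic receptor for an ovalbumin peptide. Its legend for the RNA sequencing names only splenic T cells, and the labels give only genotype and cell type. Wild-type mice (WT) were compared with TPdh-/- mice, which carry the floxed allele B6.129P2-Pdha1tm1ptl/J and a CD4-Cre transgene. Pdha1 encodes a subunit of the first enzyme of the pyruvate dehydrogenase complex, which feeds pyruvate into the mitochondrial citric acid cycle. CD4-Cre acts during T cell development, at a stage that CD4+ and CD8+ cells share. The labels do not give the alleles of the WT mice. In those methods cells were activated with the peptide, then grown with IL-2 towards effector cells (TE) or with IL-15 towards memory cells (TM). If they hold for these libraries, all groups share the receptor and the activation. The study used young adult mice of both sexes, and the labels give neither age nor sex for a library. There were 4 groups of 4 libraries. Libraries 1 to 4 were WT TE and 5 to 8 TPdh-/- TE, while 9 to 12 were WT TM and 13 to 16 TPdh-/- TM, and values are given below in that order of libraries. Whether a library stands for 1 animal is not given in the labels, so each p measures the spread between these libraries, which may be technical. The study names more mice for each condition of its RNA sequencing of TM cells than there are libraries in a group here, and how mice map to libraries is not given.

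Lysosomes are acidic compartments in which proteins, sugars and lipids are broken down. A rotary proton pump, the V-ATPase, acidifies them, hydrolases in the lumen degrade their contents, and glycosylated membrane proteins line and protect the boundary. Transcription factors of the MiT/TFE family (Tfeb, Tfe3 and Mitf) bind DNA elements with an E-box core in the promoters of many of these genes, and mTORC1 at the lysosomal surface keeps those factors in the cytosol when nutrients are plentiful. In cytotoxic T cells a specialised form of the lysosome, the lytic granule, stores perforin and granzymes, and cathepsin C trims granzymes to their active form.

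The E-box core was searched for in RefSeq promoter windows (GRCm38.p6) because it is the letter sequence tied to this family of factors. Each window ran from 250 bases before to 50 bases after an annotated start. RefSeq windows were matched by symbol for 31 members (39 windows). The letters CACGTG, which read the same on both strands, stood in 13 of the 39 windows (33.3%), against 7.15% of all 32851 windows. The longer TCACGTGA, which contains the shorter one, stood in 6 windows (15.4%), against 0.974% of all. A match describes letters, not a bound site. The stretches around the longer form are shown 5′ to 3′ on the strand of the gene, with the matched letters in capitals, since these 6 members carry the form nearest to the element the factors bind.
Ctsa (chr2:164833749-164833778, plus strand, 12 bases before the start): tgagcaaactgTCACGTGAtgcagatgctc
Ctsa (chr2:164833766-164833795, plus strand, 6 bases after the start): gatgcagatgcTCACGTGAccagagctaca
Ctsd (chr7:142387908-142387937, minus strand, 98 bases before the start): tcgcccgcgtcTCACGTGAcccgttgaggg
Mcoln1 (chr8:3500462-3500491, plus strand, 45 bases before the start): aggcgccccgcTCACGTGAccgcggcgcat
Atp6v0d1 (chr8:105566050-105566079, minus strand, 3 bases before the start): ccctactgcggTCACGTGAgacgcggtgcg
Atp6v1a (chr16:44139373-44139402, minus strand, 131 bases before the start): ttttttttaaaTCACGTGAtaggcttaacg
Gla (chrX:134601215-134601244, minus strand, 227 bases before the start): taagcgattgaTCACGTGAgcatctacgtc
Gla (chrX:134601182-134601211, minus strand, 194 bases before the start): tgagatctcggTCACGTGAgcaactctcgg
The 250 bases before the start are shown for Ctsd, which carries both forms, and for Ctss, whose window holds neither, because in TE their RNA differed between genotypes in opposite directions, while in TM Ctsd was not called and Ctss was higher (values below). Capitals again mark the searched letters.
Ctsd (chr7:142387828-142388077, minus strand): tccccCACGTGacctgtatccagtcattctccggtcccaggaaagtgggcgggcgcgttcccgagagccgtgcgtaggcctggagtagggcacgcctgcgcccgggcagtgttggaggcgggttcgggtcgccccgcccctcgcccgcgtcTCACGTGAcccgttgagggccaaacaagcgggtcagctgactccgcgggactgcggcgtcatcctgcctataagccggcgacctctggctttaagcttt
Ctss (chr3:95526536-95526785, plus strand): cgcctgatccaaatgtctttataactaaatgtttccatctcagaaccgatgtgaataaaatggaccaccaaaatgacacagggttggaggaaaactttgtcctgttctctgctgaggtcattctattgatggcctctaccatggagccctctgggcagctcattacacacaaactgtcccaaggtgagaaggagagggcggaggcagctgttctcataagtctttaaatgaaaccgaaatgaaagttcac
Of the 13 members with CACGTG in a window, 3 were higher and 4 lower in TPdh-/- TE than in WT TE, where 17.3% of all tested genes were higher and 14.3% lower. Of the 18 members with windows and without it, 7 were higher and 5 lower. In TM, 3 with the letters and 6 without them were higher, and the 1 lower member (Sgsh) had them, where 11.0% of all tested genes were higher and 7.27% lower. No difference between members with and without the letters was tested.

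Totals ran from 53007257 to 73507566 counts per library. Counts of libraries within a group differed by more than counting error (chi-square of 8.11 to 70.3 for each degree of freedom). Each library was counted as a sample of its own, though this spread does not show that libraries are separate animals. WT TM library 12 and TPdh-/- TE library 5 stood farthest from their groups. Without both, a setting chosen after the data were seen, 10 members were higher in TPdh-/- TM, of which 9 were among the 10 called with all libraries (Mitf lost its call and Neu1 gained one), and 0 were lower by edgeR (1 with all libraries). In TE 12 were higher and 11 lower, of which 10 and 11 were shared with the calls on all libraries. Pdha1 itself had 160.1 to 162 CPM in WT TE, 147 to 156 in TPdh-/- TE, 169 to 194 in WT TM and 141 to 159.7 in TPdh-/- TM. CPM are counts scaled to library size with TMM factors. The genotype difference of Pdha1 was -0.22 ± 0.062 in TM on the log2 scale (adjusted p = 0.00556) and -0.075 ± 0.02 in TE (adjusted p = 0.285). A count over the whole gene does not show the loss of a floxed exon, so this level does not check the genotype labels. All 7 CD8 T cell markers were detected in every group, at a summed TPM of 4266 to 5043 in WT TE, 3407 to 3819 in TPdh-/- TE, 5104 to 5612 in WT TM and 4286 to 4362 in TPdh-/- TM. TPM is scaled for library size and transcript length, and is the scale on which genes are compared with each other here.

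The members spanned a wide range of levels. Ctsw, a cysteine protease, was the highest at a mean of 560 TPM over the 16 libraries (344 to 799). Ctsd, the main aspartic protease of lysosomes, came next at 429 TPM (351 to 481). Psap, the precursor of the saposins that help enzymes reach lipids, followed at 186 TPM, then Ctss at 108 TPM and Ctsa at 106 TPM. These 5 genes held 58.9% to 69.0% of the summed TPM of the 38 in a library. At the low end stood Ctsh (0.912 TPM), Cd63 (0.527 TPM), Lgmn (0.509 TPM) and Mitf (0.302 TPM). Counts behind those 4 were small: 4 to 239 per library for Ctsh, 1 to 58 for Cd63, 10 to 145 for Lgmn and 21 to 162 for Mitf. Summed over the 38 members, TPM was 1904 ± 13.2 (SD, n = 4) in WT TE, 1851 ± 89.1 in TPdh-/- TE, 2399 ± 141 in WT TM and 2408 ± 123 in TPdh-/- TM.

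**Figure D1:**
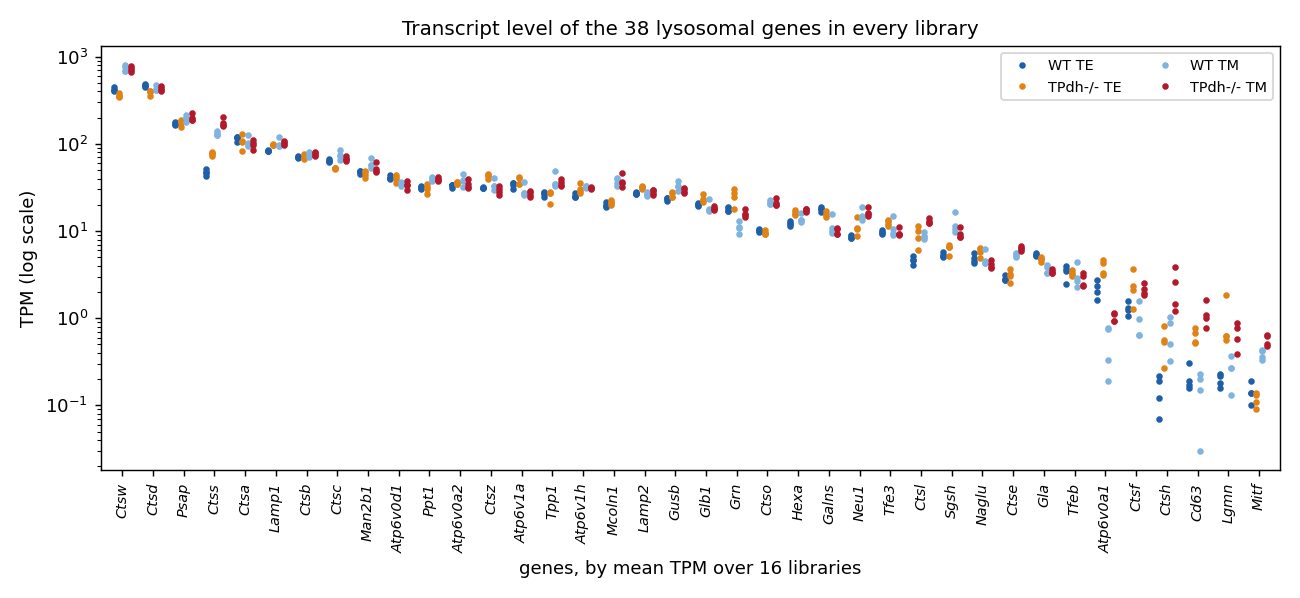
TPM (log scale) of each of the 38 lysosomal genes in each of the 16 libraries, coloured by group and ordered by mean TPM. Ctsw and Ctsd stand at the top at means of 560 and 429 TPM, and Mitf at the bottom at 0.302 TPM.

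The first question was which lysosomal genes differed between TPdh-/- and WT cells of the same culture. In TM, 10 of the 38 members were higher in TPdh-/- and 1 was lower, where 11.0% of all 15277 tested genes were higher and 7.27% lower (edgeR, adjusted p below 0.05). In TE, 11 were higher and 13 lower, against 17.3% and 14.3% of all genes. The median log2 difference of the members was 0.013 in TM and 0.030 in TE, and that of all tested genes lay at -0.0048 in TM and -0.00025 in TE. Fewer cells with a transcript and less of it per cell cannot be told apart in bulk RNA. Each SE below is the spread of log2 CPM over 4 against 4 libraries, and every log2 difference is TPdh-/- minus WT unless a culture is named.

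The counts of lower genes in TE depended on scaling. With limma on log2(TPM + 1), in place of edgeR on TMM-scaled counts, 3 members were lower (Ctsc, Ctsd and Ctsw, all among the 13) and 12 higher. Over all genes that scaling put 84.0% of the calls in TE on the higher side, against 54.8% in the TMM fit. When each library was shifted so that its median gene sat at the mean profile, a setting chosen after the data were seen, 9 members were lower, 8 of them among the 13, and 8 were higher, with 49.7% of all calls on the higher side.

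**Figure D2:**
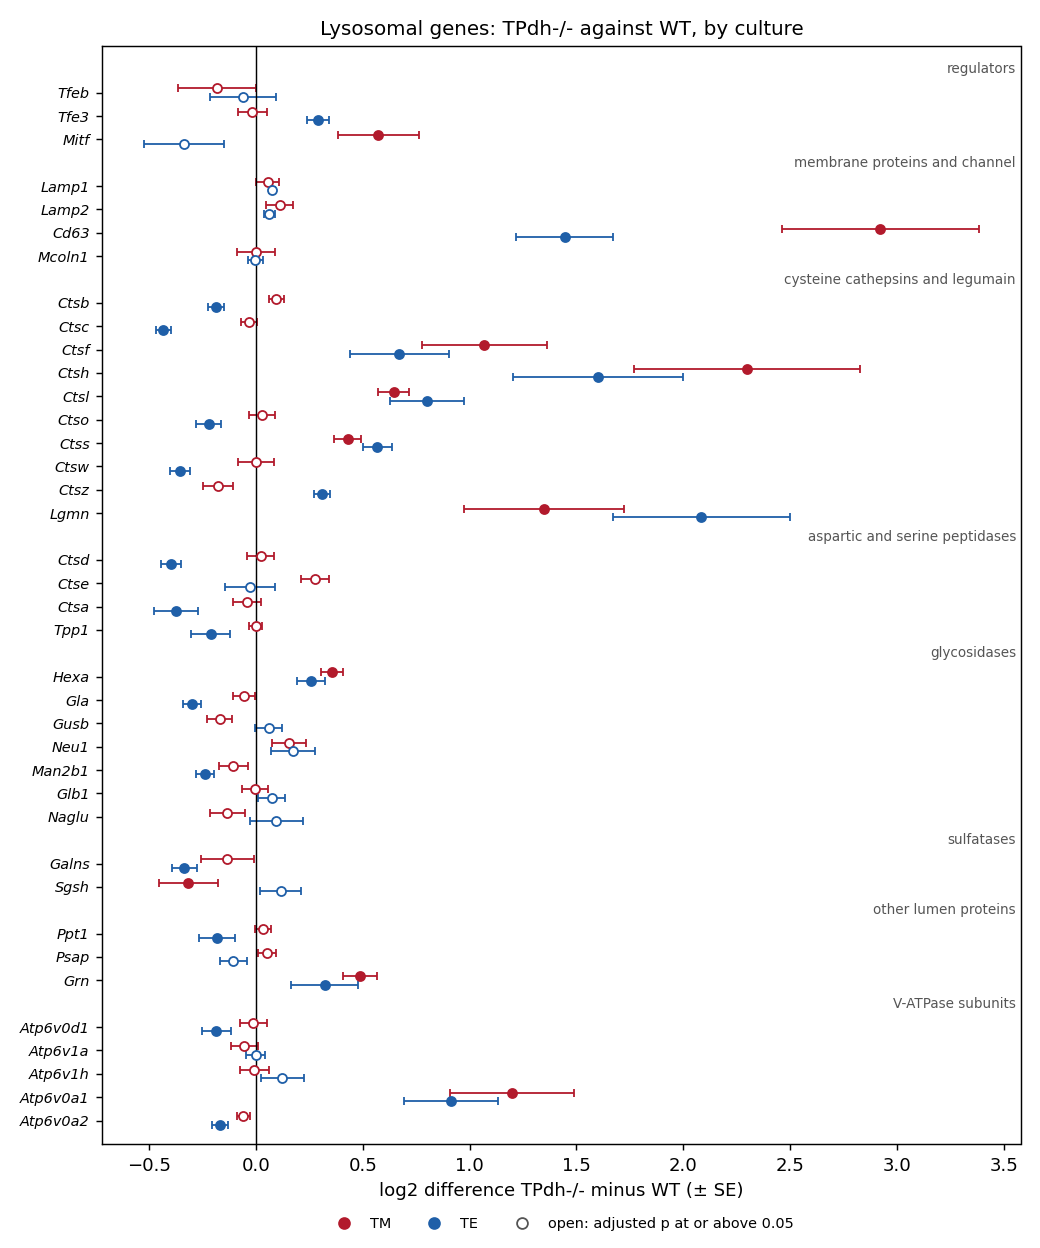
Log2 difference TPdh-/- minus WT (x axis, bars are SE over 4 against 4 libraries) for each of the 38 genes, grouped by role, in TM (red) and TE (blue); filled points have an adjusted p below 0.05. Cd63 and Ctsh lie farthest to the right in TM, at 2.92 and 2.30, and Ctsc and Ctsd farthest to the left in TE, at -0.43 and -0.40.

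A block of 9 members was higher in TPdh-/- in both cultures: Cd63, Ctsf, Ctsh, Ctsl, Ctss, Hexa, Atp6v0a1, Grn and Lgmn. They ranged from 0.36 to 2.92 on the log2 scale in TM and from 0.26 to 2.08 in TE. In TM all 4 TPdh-/- libraries stood above all 4 WT libraries for each of the 9, and in TE for 7 of them. The 9 were picked by their calls on these same values, so this separation adds no support. The shares of all genes called higher, or apart, in both cultures were not computed. Their median rank by TPM among the 38 was 33, and Ctss ranked highest of them, at 4. Their summed TPM was 80.7 to 89.4 in WT TE, 123 to 146 in TPdh-/- TE, 159 to 176 in WT TM and 215 to 260 in TPdh-/- TM, of which Ctss was the largest part. A higher sum in TPdh-/- within each culture follows from how the 9 were picked. For none of the 9 did the genotype difference in TM pass the test of a difference from that in TE (adjusted p from 0.0713 to 0.606). Membership of the block also depended on the setting. With limma on log2(TPM + 1), centred or not, Atp6v0a1 and Lgmn lost the call in TM, and Ctsf and Ctsh lost it in TE. Grn lost its TE call when only the 2 TE groups were fitted.

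Markers of other cell types moved with genotype as well. The macrophage and monocyte list of 12 genes summed to 2.82 to 5.67 TPM in WT TE, 3.68 to 9.66 in TPdh-/- TE, 3.13 to 4.01 in WT TM and 19.6 to 33.6 in TPdh-/- TM. In TM, 5 of its 12 genes (Lyz2, Csf1r, C1qb, Fcgr1 and Mrc1) had all TPdh-/- libraries above all WT libraries, and in TE 2 of 12. In both cultures 0 had them all below. Lyz2 held most of the TM sum, at 17.7 to 28.8 TPM in TPdh-/- TM against 2.14 to 3.14 in WT TM. Csf1r stood at 0.43 to 0.62 against 0.05 to 0.15 TPM, and C1qb at 0.29 to 1.33 against 0.06 to 0.10. Fcgr1 stood at 0.04 to 0.14 against 0.0 to 0.02 TPM, and Mrc1 at 0.03 to 0.10 against 0.01 to 0.02. Marco, Mertk and Mrc1 stayed at or below 0.10 TPM in every library. The NK cell list (4 genes) stood at 1.52 to 2.65 TPM in WT TM and 20.6 to 28.8 TPM in TPdh-/- TM, with 4 of 4 genes apart. In TE it stood at 0.96 to 2.02 TPM in WT and 1.65 to 2.16 TPM in TPdh-/-, with 3 of 4 apart. The dendritic cell list (6 genes) stood at 1.01 to 1.72 TPM in WT TM and 7.57 to 15.1 TPM in TPdh-/- TM, most of it Itgax, with 3 of 6 apart, and in TE at 5.20 to 6.57 TPM in WT and 1.91 to 4.57 TPM in TPdh-/-. Flt3 and Siglech of that list were at or below 0.04 TPM throughout. The 3 gamma-delta T cell genes, nearly all of it Trdc, summed to 30.1 to 35.4 TPM in WT TE, 49.3 to 52.6 TPM in TPdh-/- TE, 44.5 to 51.0 TPM in WT TM and 78.7 to 85.9 TPM in TPdh-/- TM, with 3 of 3 apart in both cultures. B cell markers (5 genes) summed to 10.1 to 20.3 TPM in WT TM and 8.83 to 38.5 TPM in TPdh-/- TM, which overlapped, and to 6.84 to 7.81 TPM in WT TE and 8.0 to 9.82 TPM in TPdh-/- TE, which did not, though 0 of the 5 genes were apart in either culture. The 4 plasma cell genes summed to 0.73 to 1.44 TPM in WT TE and 1.53 to 12.9 TPM in TPdh-/- TE, with 2 of 4 apart, and to 0.96 to 5.15 TPM in WT TM and 3.63 to 18.3 TPM in TPdh-/- TM, with 0 of 4 apart. Cd4 and Foxp3, the CD4 T cell genes, summed to 0.29 to 0.52 TPM in WT TE and 1.98 to 8.34 TPM in TPdh-/- TE, with both genes apart, and to 0.69 to 1.25 TPM in WT TM and 1.13 to 2.21 TPM in TPdh-/- TM, which overlapped. Sums of the mast cell and basophil genes were apart in TM (0.06 to 0.24 TPM in WT, 0.40 to 2.31 TPM in TPdh-/-) and those of the erythroid genes in TE (0.36 to 0.68 TPM in WT, 0.79 to 1.62 TPM in TPdh-/-), while the neutrophil sums overlapped in both cultures. Myeloid cells express several of the 9 members strongly, and the part of other cells in the differences of the 9 was not tested.

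**Figure D3:**
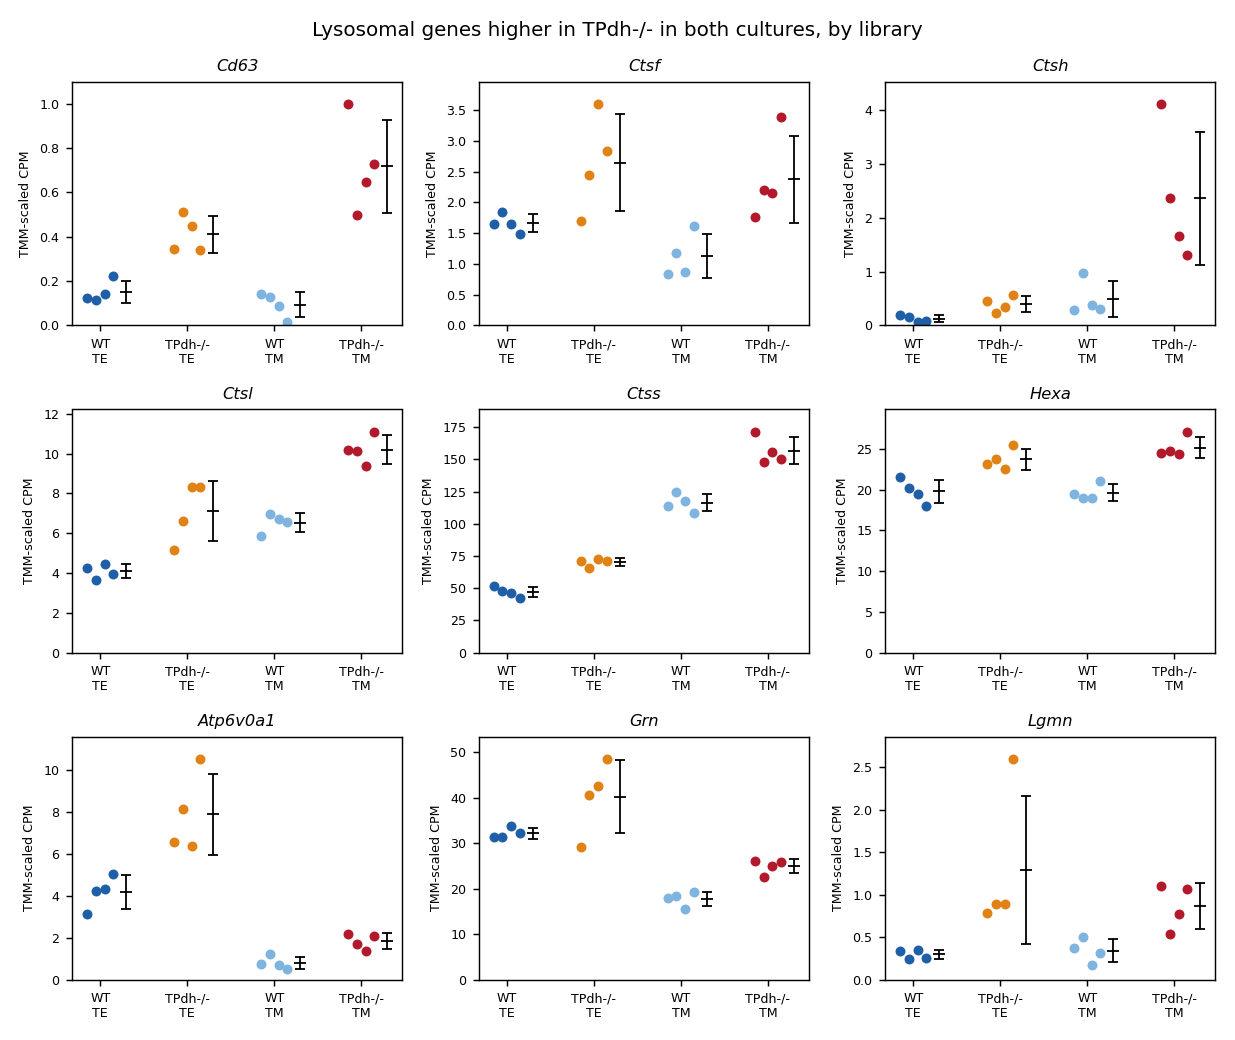
TMM-scaled CPM of the 9 genes higher in TPdh-/- in both cultures; each dot is 1 library and the bar beside each group is its mean with the SD of 4 libraries. In TM every TPdh-/- library of all 9 genes lies above every WT library; in TE the groups of Ctsf and Grn overlap.

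The 3 regulators gave different results. Tfeb did not pass the test in either culture, at -0.18 ± 0.18 in TM (adjusted p = 0.485) and -0.06 ± 0.16 in TE (adjusted p = 0.807). Tfe3 had 22.04, 21.7, 21.9 and 23.99 CPM in WT TE and 25.4, 27.2, 28.2 and 28.8 CPM in TPdh-/- TE. All 4 TPdh-/- TE libraries were above all WT TE libraries, a difference of 0.29 ± 0.052 (1.22-fold, adjusted p = 0.00225). In the TM cultures Tfe3 had 21.3, 20.97, 19.8 and 24.1 CPM in WT TM and 22.4, 21.4, 21.2 and 20.3 CPM in TPdh-/- TM, and these groups overlapped. Mitf held few reads and had 0.703, 0.617, 0.431 and 0.606 CPM in WT TE and 0.3600, 0.498, 0.549 and 0.448 CPM in TPdh-/- TE. Mitf in TM had 1.06, 1.41, 1.73 and 1.38 CPM in WT TM and 2.18, 2.06, 2.45 and 1.597 CPM in TPdh-/- TM. Mitf was higher in most TPdh-/- TM libraries than in WT TM, with overlap between library 16 and library 11, by 0.57 ± 0.19 (adjusted p = 0.0382), while in TE the value was -0.34 ± 0.19 (adjusted p = 0.253). The signed genotype difference (TPdh-/- minus WT) was higher in TM than in TE for Mitf, by 0.91 ± 0.27 (adjusted p = 0.0369), and lower in TM for Tfe3, at -0.31 ± 0.084 (adjusted p = 0.0288). The call of Mitf in TM was lost without any 1 of libraries 9, 10, 12, 13, 14 or 15 (adjusted p from 0.065 to 0.122). That of its difference between cultures was lost without any 1 of libraries 1, 2, 4, 5, 6, 8, 9, 10, 12, 13, 14 or 15 (adjusted p from 0.0503 to 0.0823), and that of Tfe3 without any 1 of libraries 1, 2, 3, 6, 7, 8, 9, 12, 14, 15 or 16 (adjusted p from 0.0524 to 0.0731).

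Among the membrane proteins the largest difference was that of Cd63, a tetraspanin of late endosomes, lysosomes and secretory granules. Cd63 had 0.125, 0.114, 0.144 and 0.225 CPM in WT TE and 0.343, 0.512, 0.451 and 0.3405 CPM in TPdh-/- TE. Cd63 in TM had 0.1404, 0.1296, 0.0856 and 0.0167 CPM in WT TM and 0.997, 0.498, 0.649 and 0.728 CPM in TPdh-/- TM. The TPdh-/- libraries lay above the WT libraries in both cultures, on totals of only 37 counts in WT TE, 109 in TPdh-/- TE, 22 in WT TM and 170 in TPdh-/- TM. The difference was 2.92 ± 0.46 in TM (7.57-fold, adjusted p = 2.89e-05) and 1.44 ± 0.23 in TE (2.72-fold, adjusted p = 0.00526). The abundant membrane glycoproteins did not pass the test. Lamp1 stood at 0.055 ± 0.052 in TM and 0.077 ± 0.014 in TE, where its groups were apart, and Lamp2, which also takes part in chaperone-mediated autophagy, at 0.11 ± 0.065 and 0.064 ± 0.024 (adjusted p from 0.163 to 0.450). Mcoln1, the calcium release channel TRPML1, differed by 0.00002 ± 0.088 in TM and -0.002 ± 0.035 in TE.

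The cysteine proteases were the largest role and held the most calls. In TM 5 of the 10 were higher by edgeR (50%, against 11.0% of all genes). By edgeR 0 were lower there (7.27% of all genes), with 1 lower at an unadjusted p below 0.05 and 1 by DESeq2. In TE 6 were higher (60%, against 17.3%) and 4 lower (40%, against 14.3%). Ctss, which degrades the invariant chain in antigen-presenting cells, was the only abundant one among the genes that rose in both cultures. Ctss had 52.1, 47.8, 46.4 and 42.8 CPM in WT TE and 71.1, 65.5, 72.7 and 71.1 CPM in TPdh-/- TE. Ctss in TM had 114, 124, 118 and 109 CPM in WT TM and 172, 148, 156 and 151 CPM in TPdh-/- TM. The 4 groups did not overlap, with WT TE lowest and TPdh-/- TM highest. The genotype difference of Ctss was 0.43 ± 0.062 in TM (1.35-fold, adjusted p = 0.000121) and 0.57 ± 0.067 in TE (1.48-fold, adjusted p = 4.38e-06). Ctsl, an endopeptidase found in most cell types, had 4.25, 3.65, 4.46 and 3.97 CPM in WT TE and 5.16, 6.64, 8.34 and 8.32 CPM in TPdh-/- TE. Ctsl in TM had 5.85, 6.98, 6.71 and 6.57 CPM in WT TM and 10.2, 10.1, 9.38 and 11.1 CPM in TPdh-/- TM. Each TPdh-/- group lay above its WT group, by 0.65 ± 0.074 in TM (adjusted p = 0.00135) and 0.80 ± 0.17 in TE (adjusted p = 0.000136). Predicted genes share 26.8% of the exon bases of Ctsl, and the kit did not keep the strand.

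Ctsh, Ctsf and Lgmn rose from low levels. Ctsh, an aminopeptidase, had 0.203, 0.162, 0.0639 and 0.0866 CPM in WT TE and 0.463, 0.229, 0.352 and 0.573 CPM in TPdh-/- TE. Ctsh in TM had 0.281, 0.981, 0.376 and 0.3003 CPM in WT TM and 4.11, 2.36, 1.66 and 1.31 CPM in TPdh-/- TM. No library of one genotype overlapped the other within a culture, and the spread within TPdh-/- TM was wide. The summed TPM of the 5 B cell markers was 10.9, 20.3, 11.4 and 10.1 in WT TM and 38.5, 22.8, 16.8 and 8.83 in TPdh-/- TM. In TPdh-/- TM it fell in the same order of libraries as Ctsh, and in WT TM library 10 was highest for both, while library 16 had the lowest sum of the 8 and more Ctsh than any WT library. The part of B cells in the values of Ctsh was not tested. Ctsh differed by 2.30 ± 0.53 in TM (4.92-fold, adjusted p = 0.000868) and 1.60 ± 0.40 in TE (adjusted p = 0.0322). Ctsf had 1.66, 1.85, 1.65 and 1.49 CPM in WT TE and 1.697, 2.45, 3.59 and 2.83 CPM in TPdh-/- TE. Ctsf in TM had 0.842, 1.18, 0.873 and 1.62 CPM in WT TM and 1.75, 2.204, 2.14 and 3.39 CPM in TPdh-/- TM. The TM groups were apart and the TE groups overlapped through library 5. For Ctsf the difference was 1.07 ± 0.29 in TM (adjusted p = 0.00593) and 0.67 ± 0.23 in TE (adjusted p = 0.0416). Lgmn, an asparaginyl endopeptidase that activates other cathepsins, had 0.344, 0.244, 0.351 and 0.2598 CPM in WT TE and 0.789, 0.889, 0.887 and 2.598 CPM in TPdh-/- TE. Lgmn in TM had 0.374, 0.4998, 0.171 and 0.317 CPM in WT TM and 1.101, 0.533, 0.7699 and 1.06 CPM in TPdh-/- TM. Library 8 stood far above the other TPdh-/- TE libraries, and the genotypes were apart in both cultures. Lgmn differed by 1.35 ± 0.37 in TM (adjusted p = 0.0255) and 2.08 ± 0.41 in TE (4.24-fold, adjusted p = 0.000691). Some of these calls were lost when single libraries were left out. The TE call was lost for Ctsh without any 1 of libraries 2, 3, 4, 5 or 8 (adjusted p from 0.0511 to 0.0945). It was lost for Ctsf without any 1 of libraries 1, 2, 3, 4, 6, 7, 8, 14 or 15 (adjusted p from 0.0503 to 0.153). The TM call of Lgmn was lost without any 1 of libraries 9, 11, 12, 13 or 16 (adjusted p from 0.0502 to 0.0731).

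The cysteine proteases Ctsb, Ctsc and Ctsw were lower in TPdh-/- TE, and none was called between genotypes in TM by edgeR (Ctsb had an unadjusted p of 0.0491) or by DESeq2. For these 3 the test of the difference between cultures passed, with the TM value above the negative TE value. Ctsc, which trims granzymes, had 145, 135, 132 and 133 CPM in WT TE and 104, 100.3, 99.05 and 100.3 CPM in TPdh-/- TE. Ctsc in TM had 142, 143, 131 and 137 CPM in WT TM and 137, 136, 128 and 139 CPM in TPdh-/- TM. TPdh-/- TE stood below the other groups, which overlapped. Ctsc was 1.35-fold lower in TPdh-/- TE (-0.43 ± 0.035, adjusted p = 1.85e-06) and stood at -0.033 ± 0.038 in TM (adjusted p = 0.677), a difference between cultures of 0.40 ± 0.052 (adjusted p = 0.000394). Ctsw had 412, 377, 369 and 372 CPM in WT TE and 289, 316, 294 and 298 CPM in TPdh-/- TE. Ctsw in TM had 648, 665, 595 and 518 CPM in WT TM and 623, 595, 625 and 586 CPM in TPdh-/- TM. The TE groups were apart and the TM groups overlapped. Ctsw was 1.28-fold lower in TPdh-/- TE (-0.35 ± 0.047, adjusted p = 0.000675), and this differed from TM by 0.36 ± 0.097 (adjusted p = 0.016). Ctsb, an endo- and exopeptidase, had 166, 167, 165 and 160.5 CPM in WT TE and 137, 142, 147 and 154 CPM in TPdh-/- TE. Ctsb in TM had 147, 151, 149 and 144 CPM in WT TM and 154, 150.5, 159.6 and 167 CPM in TPdh-/- TM. All TPdh-/- TE libraries were below all WT TE libraries, and the TM groups overlapped. The difference of Ctsb was -0.18 ± 0.038 in TE (adjusted p = 0.00532), and TM exceeded TE by 0.28 ± 0.053 (adjusted p = 0.00662).

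Ctso and Ctsz completed the family. Ctso, a less studied cathepsin, had 26.9, 25.1, 25.03 and 23.6 CPM in WT TE and 21.3, 20.2, 23.3 and 21.5 CPM in TPdh-/- TE. The TE groups were apart, with TPdh-/- lower, at -0.22 ± 0.058 (adjusted p = 0.013), and in TM the value was 0.031 ± 0.062. Ctsz, a carboxypeptidase also called cathepsin X, had 33.9, 33.9, 35.1 and 33.00 CPM in WT TE and 42.8, 42.4, 43.8 and 39.2 CPM in TPdh-/- TE. Ctsz in TM had 31.9, 31.5, 29.6 and 35.6 CPM in WT TM and 29.9, 29.8, 27.96 and 26.1 CPM in TPdh-/- TM. TPdh-/- TE was above every other group, and in TM the genotypes overlapped through WT library 11 and TPdh-/- libraries 13 and 14. Ctsz was higher in TE by 0.31 ± 0.039 (adjusted p = 0.000898), stood at -0.18 ± 0.071 in TM (adjusted p = 0.0524), and the difference between cultures was -0.49 ± 0.082 (adjusted p = 0.000906).

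**Figure D4:**
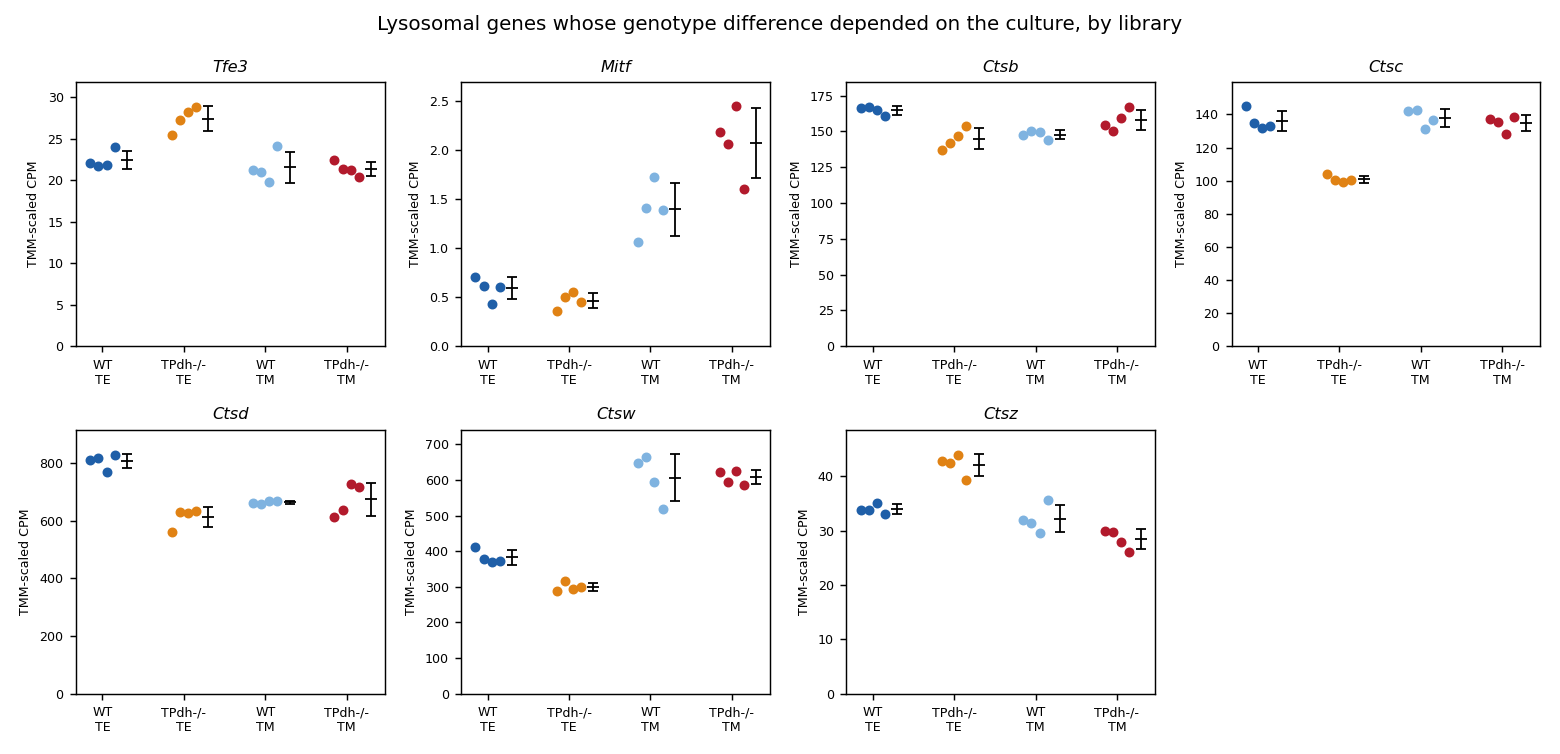
TMM-scaled CPM of the 7 genes whose genotype difference in TM differed from that in TE; each dot is 1 library and the bar beside each group is its mean with the SD of 4 libraries. For Ctsb, Ctsc, Ctsd and Ctsw TPdh-/- TE lies below WT TE while the TM groups overlap, and for Tfe3 and Ctsz TPdh-/- TE lies above.

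In all, the signed genotype difference (TPdh-/- minus WT) was higher in TM than in TE for 5 members (Mitf, Ctsb, Ctsc, Ctsd and Ctsw) and lower for 2 (Tfe3 and Ctsz), against 8.05% and 7.51% of all genes. For Ctsb, Ctsc, Ctsd and Ctsw this was a difference below 0 in TE and nearer to 0, and not called, in TM. This count also moved with scaling: limma on log2(TPM + 1) gave 2 higher and 5 lower, with 18.6% of all such calls on the higher side against 51.7%. In that setting the median of all genes was -0.12, and that of the members was 0.051 above it. After centring, 6 were higher and 1 lower, and 5 of the first group and 1 of the second were shared with the TMM fit. The count of 2 became 1 (Ctsz) without any 1 of libraries 1, 2, 3, 6, 7, 8, 9, 12, 14, 15 or 16.

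The aspartic and serine peptidases were lower in TE for 3 of 4 genes (75%, against 14.3% of all genes). In TM 0 were called by edgeR (Ctse at an unadjusted p below 0.05, and by DESeq2). Ctsd had 810.5, 815, 769 and 826 CPM in WT TE and 560.4, 629, 627 and 633 CPM in TPdh-/- TE. Ctsd in TM had 659, 659, 669 and 666 CPM in WT TM and 612, 637, 727 and 717 CPM in TPdh-/- TM. The TE groups lay well apart and library 5 was lowest, while WT TM was enclosed by TPdh-/- TM. Ctsd was 1.32-fold lower in TPdh-/- TE (-0.40 ± 0.048, adjusted p = 6.99e-05), stood at 0.022 ± 0.062 in TM, and the difference between cultures was 0.42 ± 0.078 (adjusted p = 0.0023). The predicted gene Gm49369 shares 34.4% of its exon bases, so reads there may be divided. Ctsa, a carboxypeptidase that protects sialidase and beta-galactosidase, had 119.9, 124, 123 and 124 CPM in WT TE and 79.3, 92.1, 112 and 95.7 CPM in TPdh-/- TE. The TE groups were apart, with TPdh-/- lower, at -0.37 ± 0.10 (adjusted p = 0.00182). Tpp1, a tripeptidyl peptidase, had 56.6, 54.8, 58.2 and 53.1 CPM in WT TE and 40.9, 46.4, 51.9 and 53.1 CPM in TPdh-/- TE. Its lowest WT and highest TPdh-/- values met to 3 digits, and the difference was -0.21 ± 0.091 (adjusted p = 0.0212), which was lost without library 3 or 5 (adjusted p from 0.0521 to 0.0529). Ctse, an aspartic protease of endosomes, had 4.997, 4.81, 5.48 and 4.76 CPM in WT TE and 4.03, 4.79, 5.097 and 5.75 CPM in TPdh-/- TE. Ctse in TM had 8.75, 8.39, 8.08 and 7.24 CPM in WT TM and 9.85, 10.2, 9.22 and 10.1 CPM in TPdh-/- TM. The TM groups of Ctse did not overlap, yet 0.28 ± 0.067 missed the threshold (adjusted p = 0.0524). DESeq2 called it.

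Of the 7 glycosidases only Hexa, the alpha subunit of beta-hexosaminidase, was higher in both cultures. Hexa had 21.5, 20.2, 19.4 and 18.01 CPM in WT TE and 23.1, 23.8, 22.5 and 25.4 CPM in TPdh-/- TE. Hexa in TM had 19.5, 18.97, 18.96 and 21.1 CPM in WT TM and 24.5, 24.7, 24.3 and 27.1 CPM in TPdh-/- TM. Every TPdh-/- library lay above every WT library of its culture, by 0.36 ± 0.052 in TM (adjusted p = 0.000699) and 0.26 ± 0.065 in TE (adjusted p = 0.00485). Gla, alpha-galactosidase A, had 14.5, 13.8, 13.4 and 13.4 CPM in WT TE and 10.6, 11.2, 11.2 and 11.8 CPM in TPdh-/- TE. Man2b1, the lysosomal alpha-mannosidase, had 146, 149.6, 154 and 151 CPM in WT TE and 118, 131, 133 and 127 CPM in TPdh-/- TE. Both were lower in TPdh-/- TE with groups apart, Gla at -0.30 ± 0.041 (adjusted p = 0.00166) and Man2b1 at -0.24 ± 0.042 (adjusted p = 0.00462), and neither passed the test in TM. The other four did not pass in either culture. Gusb, beta-glucuronidase, was at -0.17 ± 0.059 in TM and 0.06 ± 0.062 in TE. Neu1, the sialidase, was at 0.16 ± 0.081 and 0.17 ± 0.10, Glb1, beta-galactosidase, at -0.0046 ± 0.061 and 0.075 ± 0.062, and Naglu, which acts on heparan sulfate, at -0.13 ± 0.083 and 0.097 ± 0.12.

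Each sulfatase had 1 call. Galns, which removes sulfate from keratan sulfate, had 35.4, 37.6, 37.3 and 38.5 CPM in WT TE and 28.2, 32.6, 29.4 and 27.9 CPM in TPdh-/- TE. The groups were apart and TPdh-/- was lower, at -0.33 ± 0.057 (adjusted p = 0.00936). Sgsh, the heparan N-sulfatase, had 37.1, 38.9, 34.9 and 51.1 CPM in WT TM and 36.1, 29.9, 30.3 and 33.9 CPM in TPdh-/- TM. The groups overlapped and WT library 12 was highest. Sgsh was the single member called lower in TPdh-/- TM, at -0.32 ± 0.14 (adjusted p = 0.0468). That call was lost without any 1 of libraries 1, 2, 3, 4, 6, 7, 8, 9, 10, 12, 14, 15 or 16 (adjusted p from 0.0502 to 0.183), and Card14 shares 21.6% of the exon bases of Sgsh.

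Among the other lumen proteins Grn, which encodes progranulin, had 31.3, 31.4, 33.8 and 32.1 CPM in WT TE and 29.2, 40.6, 42.5 and 48.5 CPM in TPdh-/- TE. Grn in TM had 17.97, 18.4, 15.5 and 19.2 CPM in WT TM and 26.1, 22.7, 25.02 and 25.9 CPM in TPdh-/- TM. The TM groups were apart, and in TE library 5 lay below WT while the 3 other TPdh-/- libraries lay above it. Grn was higher by 0.49 ± 0.081 in TM (1.402-fold, adjusted p = 0.00517) and by 0.32 ± 0.16 in TE (adjusted p = 0.0322). The TE call was lost without any 1 of libraries 1, 2, 3, 4, 6, 7 or 8 (adjusted p from 0.0511 to 0.141). Ppt1, which removes palmitate from proteins, had 63.3, 59.9, 64.98 and 59.8 CPM in WT TE and 47.6, 53.1, 56.4 and 61.9 CPM in TPdh-/- TE. The groups overlapped through library 8, with a difference of -0.18 ± 0.085 (adjusted p = 0.0418), lost without any 1 of libraries 1, 3, 5 or 6 (adjusted p from 0.0743 to 0.123). Psap did not pass the test, at 0.052 ± 0.042 in TM and -0.11 ± 0.063 in TE.

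Of the 5 V-ATPase subunits 1 was higher in TPdh-/- TM (20%, against 11.0% of all genes). In TE 1 was higher (20%, against 17.3%) and 2 were lower (40%, against 14.3%). Atp6v0a1 and Atp6v0a2 encode alternative forms of the large a subunit of the membrane sector, which helps set where the pump is placed. Atp6v0a1 had 3.14, 4.25, 4.33 and 5.08 CPM in WT TE and 6.57, 8.14, 6.38 and 10.6 CPM in TPdh-/- TE. Atp6v0a1 in TM had 0.733, 1.24, 0.702 and 0.534 CPM in WT TM and 2.201, 1.71, 1.36 and 2.08 CPM in TPdh-/- TM. TPdh-/- exceeded WT in each culture without overlap, by 1.20 ± 0.29 in TM (2.295-fold, adjusted p = 0.0025) and 0.91 ± 0.22 in TE (1.88-fold, adjusted p = 0.00311). Atp6v0a2, the far more abundant form, had 119.7, 117, 113 and 125 CPM in WT TE and 108, 105, 101 and 109 CPM in TPdh-/- TE. It was lower in TPdh-/- TE with groups apart, at -0.17 ± 0.039 (adjusted p = 0.00833), but stood at 0.094 with limma on log2(TPM + 1). Atp6v0d1, the d subunit of the same sector, had 51.5, 50.3, 54.04 and 47.9 CPM in WT TE and 40.6, 43.1, 48.9 and 46.7 CPM in TPdh-/- TE. The groups overlapped, and the call of -0.18 ± 0.069 (adjusted p = 0.0418) was lost without any 1 of libraries 1, 2, 3, 5 or 6 (adjusted p from 0.0562 to 0.12). Atp6v1a, the catalytic subunit, was at -0.054 ± 0.063 in TM and -0.00056 ± 0.043 in TE, and Atp6v1h, a regulatory subunit, at -0.0077 ± 0.068 and 0.12 ± 0.10, and neither passed the test.

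The 13 members lower in TPdh-/- TE (Ctsa, Ctsb, Ctsc, Ctsd, Ctso, Ctsw, Gla, Atp6v0d1, Atp6v0a2, Tpp1, Ppt1, Man2b1 and Galns) were mostly abundant. Their median rank by TPM was 10 of 38, and they held 69.9% to 71.2% of the summed TPM of the members in WT TE and 63.1% to 65.0% in TPdh-/- TE. Since the 13 were picked as lower in TPdh-/- TE, a fall of that share follows from the choice. The differences ran from -0.43 to -0.17 on the log2 scale. In TM 0 of the 13 were called by edgeR (-0.13 to 0.097, adjusted p from 0.157 to 0.998), with 1 at an unadjusted p below 0.05 and 0 called by DESeq2. All 13 estimates of the difference between cultures were above 0, of which 4 passed the test. The 13 were picked by a negative value in TE, which each estimate subtracts. These signs therefore follow largely from the choice, and their count is not evidence of its own. The CD8 marker sums given above were also lower in TPdh-/- in both cultures. All TPdh-/- libraries lay below all WT libraries for 3 of the 7 genes in TM (Cd8a, Cd8b1 and Trac). In TE this held for 4 of 7 (Cd3d, Cd3g, Cd8b1 and Trac), and the other genes overlapped. The part of these markers was not tested. No member was called lower in one culture and higher in the other. The remaining 12, Tfeb, Lamp1, Lamp2, Mcoln1, Ctse, Gusb, Neu1, Glb1, Naglu, Atp6v1a, Atp6v1h and Psap, were called in neither culture.

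The second question was how the same genes differed between the IL-15 and IL-2 cultures of 1 genotype. In WT, 14 of the 38 members were higher in TM than in TE and 14 lower, where 34.3% of all genes were higher and 34.3% lower. In TPdh-/- cells 18 were higher and 12 lower, against 33.0% and 34.7%. As shares of the 38, these were 36.8% higher and 36.8% lower in WT, and 47.4% higher and 31.6% lower in TPdh-/- cells. With limma on log2(TPM + 1) the WT counts became 18 higher and 5 lower, with 65.6% of all calls on the higher side, where the shares of higher and lower genes given above are equal, and the median of all genes moved to 0.12.

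**Figure D5:**
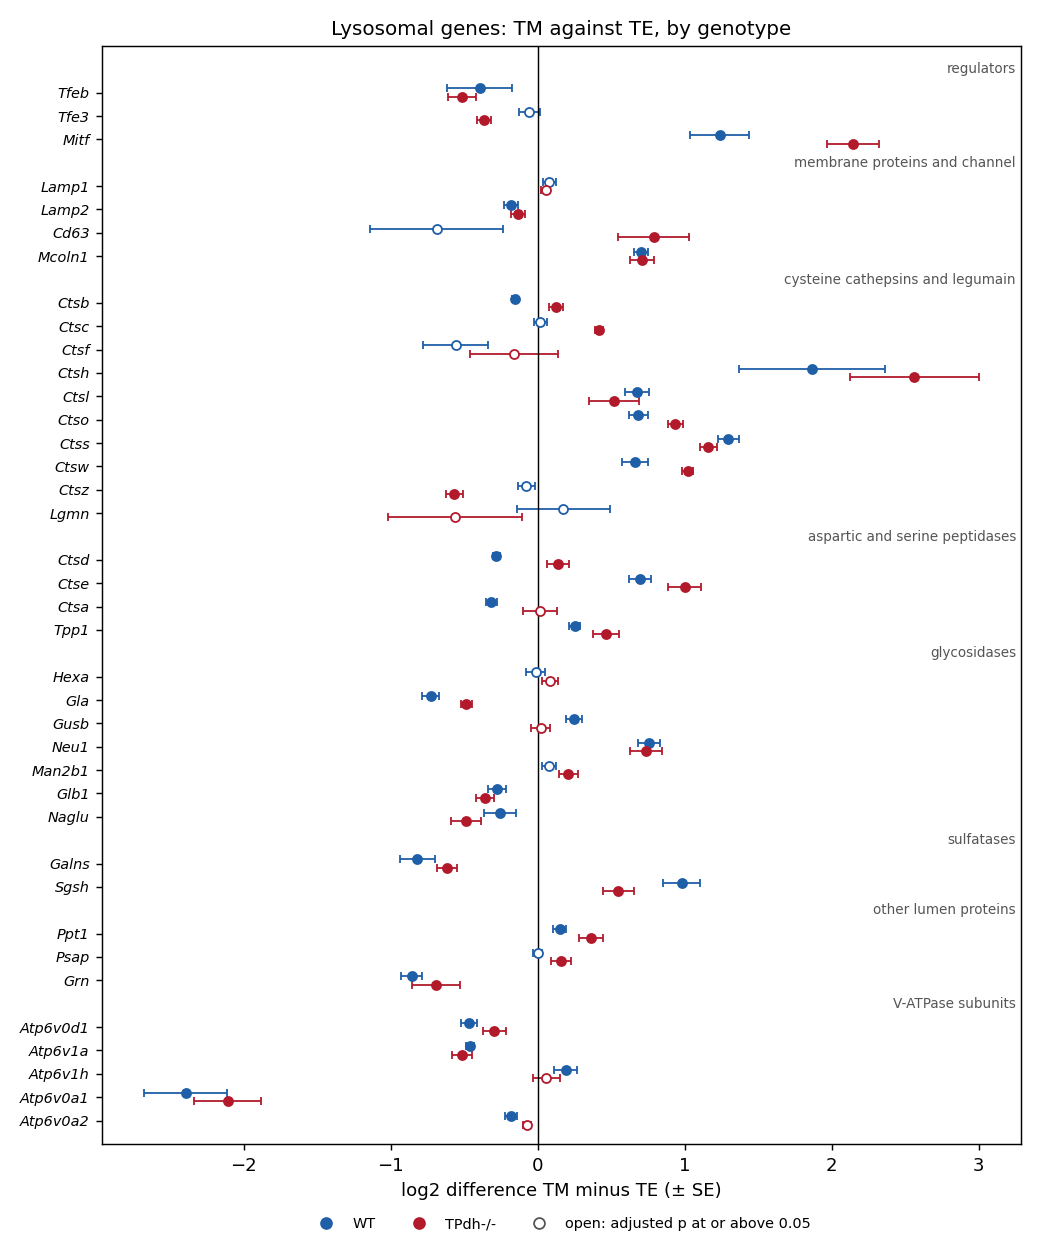
Log2 difference TM minus TE (x axis, bars are SE over 4 against 4 libraries) for each of the 38 genes, grouped by role, in WT (blue) and TPdh-/- (red); filled points have an adjusted p below 0.05. Atp6v0a1 lies farthest to the left, at -2.39 in WT, and Ctsh farthest to the right, at 2.56 in TPdh-/-.

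The members with the largest culture differences were called in both genotypes. Atp6v0a1 was 5.26-fold lower in TM than in TE in WT (-2.39 ± 0.28, adjusted p = 1.34e-07) and 4.31-fold lower in TPdh-/-. Ctsh was 3.64-fold higher in WT TM (1.87 ± 0.49, adjusted p = 0.00513) and 5.91-fold higher in TPdh-/- TM. Ctss rose 2.46-fold in WT (adjusted p = 2.76e-11) and 2.23-fold in TPdh-/-, and Mitf 2.36-fold (adjusted p = 2.95e-05) and 4.43-fold (adjusted p = 6e-08). All of these groups were apart in the values given above. Sgsh had 19.8, 20.4, 21.98 and 19.8 CPM in WT TE and 18.5, 22.7, 24.3 and 23.3 CPM in TPdh-/- TE. Against these values it was 1.97-fold higher in WT TM (0.98 ± 0.13, adjusted p = 3.53e-07). Grn was 1.81-fold lower in WT TM (adjusted p = 2.67e-06). In TPdh-/- cells Ctsw was 2.03-fold higher in TM (adjusted p = 9.38e-10) and Ctse 1.999-fold (adjusted p = 9.63e-08).

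By role, 5 of 10 cysteine proteases were higher in WT TM and 1 lower, while 4 of 5 V-ATPase subunits were lower and 1 (Atp6v1h) higher. Atp6v0d1 stood at -0.47 ± 0.052, Atp6v1a at -0.46 ± 0.029 and Atp6v0a2 at -0.18 ± 0.04. Neu1 and Mcoln1 rose in WT TM by 0.76 ± 0.074 and 0.71 ± 0.048, Ctso by 0.69 ± 0.066 and Ctse by 0.69 ± 0.074. Galns, Gla, Glb1 and Naglu fell, with values from -0.82 ± 0.12 for Galns to -0.26 ± 0.11 for Naglu, and Tfeb stood lower, at -0.39 ± 0.22 (adjusted p = 0.0371). In total 12 members were higher in TM in both genotypes and 10 lower in both. Of all genes, 33.0% to 34.7% were called in each direction within a genotype. The share of all genes called alike in both genotypes was not computed, so these 2 counts have no background beside them. Ctsb and Ctsd were the 2 called in opposite directions: lower in WT TM, at -0.16 ± 0.02 and -0.28 ± 0.023, and higher in TPdh-/- TM, by 0.12 ± 0.049 and 0.14 ± 0.075. The test of that difference is the same contrast as the interaction given above, with Ctsb at adjusted p = 0.00662 and Ctsd at 0.0023. Several weak calls were lost when single libraries were left out. In TPdh-/- this held for Ctsb without any 1 of libraries 5, 6 or 16 (adjusted p from 0.0504 to 0.0708) and for Ctsd without any 1 of libraries 5, 10, 15 or 16 (adjusted p from 0.0548 to 0.151). It held for Cd63 without any 1 of libraries 5, 8 or 13 (adjusted p from 0.0724 to 0.115), for Psap without library 5 or 13 (adjusted p from 0.0597 to 0.0748) and for Lamp2 without any 1 of libraries 1, 2, 3, 5, 7, 8, 9, 11, 13, 14 or 15 (adjusted p from 0.0509 to 0.156). In WT it held for Tfeb without any 1 of libraries 2, 3, 9, 10 or 11 (adjusted p from 0.0656 to 0.136), for Naglu without any 1 of libraries 2, 3, 9, 10 or 11 (adjusted p from 0.0596 to 0.13), for Atp6v1h without any 1 of libraries 2, 3, 4, 6, 8, 9, 10, 11, 13, 14, 15 or 16 (adjusted p from 0.0534 to 0.138) and for Ppt1 without any 1 of libraries 1, 2, 4, 6, 7, 9, 10, 11, 13, 14, 15 or 16 (adjusted p from 0.058 to 0.128).

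Lysosomal genes outside the 38 were looked at through 8 lists of 146 genes. Their counts are a description, beside 11.0% of all tested genes higher and 7.27% lower between genotypes in TM, and 17.3% and 14.3% in TE. In TPdh-/- against WT TM, 1 of the 13 tested other V-ATPase subunits was higher and 0 lower by edgeR (1 lower at an unadjusted p below 0.05, 0 by DESeq2). In TE 0 were called by edgeR (1 lower at an unadjusted p below 0.05, 0 by DESeq2). The higher one was Atp6v1g2, a G subunit known from neurons, at 0.39 ± 0.098 (adjusted p = 0.0214). Of 27 other hydrolases 4 were higher and 4 lower in TM (14.8% each), and 8 and 8 in TE (29.6% each). Arsb, a sulfatase that acts on dermatan sulfate, went opposite ways: it was 175 ± 19.03 CPM in WT TE, 90.8 ± 9.36 in TPdh-/- TE, 35.5 ± 7.35 in WT TM and 105 ± 33.1 in TPdh-/- TM (SD). Its genotype difference was 1.57 ± 0.28 in TM (adjusted p = 1.07e-05) and -0.94 ± 0.11 in TE (adjusted p = 0.000661), and the test of the difference between them gave adjusted p = 4.93e-06. Scpep1, a serine carboxypeptidase, and Acp2, the lysosomal acid phosphatase, were higher in TM by 0.29 ± 0.031 and 0.34 ± 0.057, and in TE by 0.36 ± 0.026 and 0.39 ± 0.052. Of 25 other membrane proteins 2 were higher (8%) and 1 lower (4%) in TM. These were Slc15a3, a peptide and histidine transporter, at 1.72 ± 0.27 on fewer than 1 CPM in every TM library, Cd68, a glycoprotein of myeloid lysosomes, at 0.75 ± 0.17, and Tpcn1, a cation channel, at -0.42 ± 0.12. In TE 4 were higher (16%) and 5 lower (20%).

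Of the 16 sorting and fusion genes 2 were higher and 2 lower in TM (12.5% each, against 11.0% and 7.27% of all genes). Sort1, a receptor that carries cargo to lysosomes, was higher by 1.83 ± 0.36 (adjusted p = 0.00147) from below 1 CPM. Igf2r, the large mannose 6-phosphate receptor, was lower, at -0.30 ± 0.089 (adjusted p = 0.0137), and Gnptg, a subunit of the enzyme that makes the mannose 6-phosphate tag, at -0.17 ± 0.027 (adjusted p = 0.0224). Unkl shares 49.5% of the exon bases of Gnptg. In TE 2 were higher (12.5%, against 17.3%) and 4 lower (25.0%, against 14.3%). Of the 22 autophagy genes 0 were called in TM by edgeR (4 higher and 1 lower at an unadjusted p below 0.05, 1 higher by DESeq2), and 2 were higher and 2 lower in TE (9.09% each). Of the 20 genes of mTORC1 at the lysosome, Rragd, a small GTPase that is itself a target of the MiT/TFE factors, was the only one called in TM, at 0.75 ± 0.18 (adjusted p = 0.0209). In TE it was at 1.91 ± 0.27 (3.76-fold, adjusted p = 3.60e-06), and 3 of the 20 were higher (15%) and 1 lower (5%).

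A list of 9 protease inhibitors held cystatins and serpins, and which of them act on the member cathepsins was not examined. Of the 9, 6 were higher in TPdh-/- TM by edgeR (66.7%, against 11.0% of all genes). By edgeR 0 were lower (7.27% of all genes), with 0 lower at an unadjusted p below 0.05 and 0 by DESeq2. The median of the 9 was 0.81 against -0.0048 for all genes. In TE 2 were higher (22.2%, against 17.3% of all genes) and 3 lower (33.3%, against 14.3%). Serpina3f rose most, from 0.539 ± 0.104 CPM in WT TM to 7.04 ± 1.51 in TPdh-/- TM (3.70 ± 0.20, adjusted p = 6.80e-07). Serpinb9, the inhibitor of granzyme B, rose from 26.1 ± 2.29 to 59.6 ± 10.5 CPM (1.19 ± 0.14, adjusted p = 5.20e-06), and Serpinb6a from 36.4 ± 5.698 to 74.4 ± 14.02 CPM (1.03 ± 0.18, adjusted p = 1.30e-05). The 3 were lower in WT TM than in WT TE, Serpina3f at -4.27 ± 0.19, Serpinb9 at -1.95 ± 0.11 and Serpinb6a at -1.69 ± 0.11. For 8 of the 9 the signed genotype difference was higher in TM than in TE (88.9%, against 8.05% of all genes). The list was chosen with earlier results of these data known, so its shares are a description and not independent evidence. Exons of Serpinb6a overlap other genes over 29.3% of their bases. Among 8 genes for the release of secretory lysosomes, Stx11, a syntaxin needed for granule fusion, was higher in TPdh-/- TM by 0.51 ± 0.13 (adjusted p = 0.00134), and Unc13d, which primes granules, was lower, at -0.27 ± 0.12 (adjusted p = 0.0381). In TE 3 of the 8 were lower by edgeR (37.5%, against 14.3% of all genes). By edgeR 0 were higher (17.3% of all genes), with 0 higher at an unadjusted p below 0.05 and 0 by DESeq2.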

How the data were processed

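Poly(A) RNA of 16 libraries was sequenced as paired ends with the TruSeq version 2 kit, which does not keep the strand. The authors aligned reads with STAR 2.7.6a to mm10 (GRCm38) and deposited expected counts and TPM per gene from RSEM 1.3.3, per the submitters' processing notes, which also name DESeq2. The annotation release is not given in the sources used here, and a deposited FPKM column was not used. RSEM divides reads that match several genes, so values of genes with shared exon bases are estimates.

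Expected counts were rounded and fitted in edgeR 4.0.16 (R 4.3.3) with TMM factors and quasi-likelihood tests. The filter filterByExpr (minimum count 10, minimum total 15) kept 15277 of 55401 genes. One fit held all 4 groups, p-values were adjusted by Benjamini-Hochberg over all tested genes, and a call is an adjusted p below 0.05. The interaction is the genotype difference in TM minus that in TE. Log2 CPM used a prior count of 2, and the biological coefficient of variation common to all genes came to 0.104. Identifiers were matched to GENCODE M21 symbols (55141 of 55401, 99.53%), and 260 unmatched ones made up no more than 0.00955% of any total. Library totals of 53007257 to 73507566 counts set the precision, and members with few counts are the least precise. Scripts were tested on simulated data.

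Members, lists and markers were chosen with earlier results of these data known. Every member was named. Values were given per library for members called between genotypes or in the interaction, or among the 6 called with the largest difference in a culture contrast, and up to 3 called genes of each other list were named by smallest adjusted p in TM. Alternatives were RLE factors, no filter, DESeq2 1.42.0, limma 3.58.1 on log2(TPM + 1), fits of 2 groups only and leaving out each library. Centred TPM and leaving out libraries 5 and 12 together were chosen after the data were seen. Promoter windows came from RefSeq (GRCm38.p6). Ctsw, Galns, Ctsh, Ctse, Atp6v1h, Atp6v0a2 and Ctsb were not matched to a window.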

Additional observations from a re-analysis of the deposited data

Results flagged for a closer look

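In 12 of 152 member and group pairs 1 library lay apart from the other 3 of its group, by a gap larger, relative to the range of the group, than Dixon's critical value, which chance passes in about 1 in 20 groups. WT TM library 12 held 3 of them, with 110.7 CPM of Atp6v0a2, 37.4 CPM of Glb1 and 9.91 CPM of Naglu. In WT TE these were library 4 for Tfe3 at 24.0 CPM, library 1 for Ctsa at 119.9 CPM and library 3 for Psap at 400.3 CPM. In TPdh-/- TE they were library 5 for Ctsd at 560.4 CPM, library 6 for Lamp2 at 69.8 CPM and library 8 for Lgmn at 2.598 CPM. In the TM cultures the others were WT library 10 for Ctsh at 0.981 CPM, TPdh-/- library 16 for Hexa at 27.1 CPM and TPdh-/- library 15 for Naglu at 8.88 CPM.

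The genotype difference in TM differed from that in TE by edgeR's interaction test for 7 members. The signed difference (TPdh-/- minus WT) was higher in TM for Mitf (0.91), Ctsd (0.42), Ctsc (0.40), Ctsw (0.36) and Ctsb (0.28), and lower for Tfe3 (-0.31) and Ctsz (-0.49), on the log2 scale.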

How the results depend on the processing

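No paired analysis was possible because library numbers are not shared between groups. The count of members lower in TPdh-/- TM (1 by edgeR with TMM) was 2 with RLE factors, 3 with DESeq2, 0 with limma on log2(TPM + 1), 0 after centring, 0 in the fit of 2 groups and 0 without libraries 5 and 12, and it ran from 0 to 3 when single libraries were left out. With limma on log2(TPM + 1), members lower in TPdh-/- TE numbered 3 (13), members lower in WT TM than in WT TE 5 (14), and members with a higher and a lower signed genotype difference in TM than in TE 2 (5) and 5 (2). DESeq2 gave 8 with a higher one. Those with a lower one numbered 1 without the filter, 1 after centring and 1 to 3 when single libraries were left out. Of single members, 4 values with a call changed sign: with limma on log2(TPM + 1) Atp6v0a2 stood at 0.094 between genotypes in TE, and in WT TM against TE Ctsb stood at 0.084 and Atp6v0a2 at 0.19 (0.023 after centring). In that setting the median over the members was 0.17 between genotypes in TE, 0.18 for TM against TE in WT and -0.072 for the interaction. Over all genes it gave 944 higher and 693 lower in TPdh-/- TM (1685 and 1111 by edgeR), 688 lower in TPdh-/- TE (2182), 3368 lower in WT TM (5236), and 520 higher and 2277 lower interactions (1230 and 1148). The lower genes in TPdh-/- TM numbered 647 after centring and 665 in the fit of 2 groups. Of 100 member differences with a call, 44 lost the call or sign under at least 1 alternative, and of 90 without a call 30 gained one. Among 2605 comparisons without a call in either setting 177 had the other sign. The cause was not tested. The fit of 2 groups was not run for the interaction. Depth limits Cd63, Ctsh, Lgmn and Mitf most.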
